A study of Mus musculus with 6 samples.

Results

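RNA-binding and splicing factors of neurons, with 2 broadly expressed relatives, were examined in whole male mouse embryos with and without functional Smchd1, an epigenetic modifier required for X inactivation. The members were the rows of the expression table that carry the symbols *Elavl1*, *Elavl2*, *Elavl3*, *Elavl4*, *Nova1*, *Nova2*, *Celf3*, *Celf4*, *Srrm4* or *Ptbp1*, which gave 10 rows of 24207, 1 for each gene. *Elavl1* and *Ptbp1* are made in most cell types, while the other 8 are known from neurons. RNA-seq was carried out on 3 Smchd1+/+ and 3 Smchd1MommeD1/MommeD1 embryos dissected at E9.5. The sample labels give the background strain of all 6 as C57Bl6/J x FVB/n. The study's text, however, names that cross for its placenta samples, and describes a different background for its E9.5 RNA-seq embryos. MommeD1 is a nonsense allele from a chemical mutagenesis screen, and embryos of both genotypes came from matings between heterozygous parents. The table holds 1 value per gene and genotype, pooled over the 3 embryos, which leaves the variation among embryos unknown, so these values allowed no test. The authors' own test columns in the table were not used. Each difference given is therefore one between 2 pooled values, whose error is unknown.

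RNA-binding proteins set which exons enter a messenger RNA and how long the messenger lasts. In progenitors and most other tissues PTBP1 blocks many exons that neurons use. When neurons form, PTBP1 gives way to its relative PTBP2, while NOVA, CELF, neuronal ELAVL (Hu) proteins and SRRM4 (nSR100) promote neuronal exons or stabilize transcripts. The repressor REST holds many neuronal genes silent outside the nervous system, and SRRM4 is known to switch *Rest* splicing to a form with little repressor activity. At E9.5 the first neurons of the neural tube and cranial ganglia are being born. The table gives levels of whole genes, so it does not show which exons were used.

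The unit of the values is FPKM, fragments per kilobase of transcript scaled to the number of mapped fragments, so levels can be compared between genes. Ratios are given as log2 of Smchd1MommeD1/MommeD1 (mutant) over Smchd1+/+ (wildtype) after adding 0.1 FPKM to each value. This understates differences of low genes, slightly at a few FPKM and strongly where a value is near or below 0.1 FPKM. *Smchd1* itself measured 2.12 FPKM in mutants against 34.0 FPKM in wildtypes, in the direction the labels give. Whole embryos were used, so fewer cells of a type and less RNA per cell cannot be told apart.

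The upstream sequences of the ELAVL genes are shown first, since this family holds both neuronal and broadly expressed members. They are the 120 bases before the RefSeq start site (GRCm38.p6), given 5′ to 3′ in the direction of transcription. Capitals mark the E-box CAGCTG, of the kind that proneural factors bind, the related E-box CAGATG, the CCAAT box, the TATA box TATAAA and the GC box GGGCGG. Each was searched on both strands without mismatch, and none of the matches shown overlap.
*Elavl1*, minus strand, chr8:4325101-4325220: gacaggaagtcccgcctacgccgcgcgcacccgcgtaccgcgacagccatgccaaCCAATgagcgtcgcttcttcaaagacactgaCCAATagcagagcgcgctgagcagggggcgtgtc
*Elavl2*, minus strand, chr4:91399985-91400104: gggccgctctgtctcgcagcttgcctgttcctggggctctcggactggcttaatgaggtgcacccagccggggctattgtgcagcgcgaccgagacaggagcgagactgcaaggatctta
*Elavl3*, minus strand, chr9:22052024-22052143: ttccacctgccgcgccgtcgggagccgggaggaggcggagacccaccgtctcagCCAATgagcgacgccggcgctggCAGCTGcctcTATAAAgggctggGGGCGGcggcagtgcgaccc
*Elavl4*, minus strand, chr4:110351912-110352031: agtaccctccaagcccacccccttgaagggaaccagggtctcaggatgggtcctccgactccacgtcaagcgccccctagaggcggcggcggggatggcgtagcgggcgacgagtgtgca

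All 8 neuronal members were higher in mutant embryos, by a median log2 ratio of 0.86 (1.81-fold), while *Elavl1* and *Ptbp1* had ratios of -0.02 and -0.04. In the whole table, 48.2% of the 12463 rows averaging 1 FPKM or more were higher in mutant embryos. Of the 8, 6 were at least 1.5-fold higher, namely *Elavl3*, *Celf3*, *Srrm4*, *Elavl4*, *Nova2* and *Celf4*, against 3.51% of those rows and 6.35% of all rows above 0. A ratio of at least 2-fold was found for *Elavl3*, *Celf3* and *Srrm4*, against 0.979% of rows. No member was at least 1.5-fold lower, against 1.47% of rows. The neuronal median exceeded that of *Elavl1* and *Ptbp1* by 0.89 on the log2 scale. A single scaling factor between the genotypes leaves that difference almost as it is. Summed over the 8 neuronal members, the level was 43.3 FPKM in mutants against 26.0 FPKM in wildtypes. In FPKM rather than as a ratio, *Elavl4* differed most, by 4.37, followed by *Elavl2* (3.11), *Elavl3* (2.92), *Celf3* (2.39), *Nova2* (2.08) and *Srrm4* (1.46), with *Nova1* (0.539) and *Celf4* (0.433) last.

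**Figure D1:**
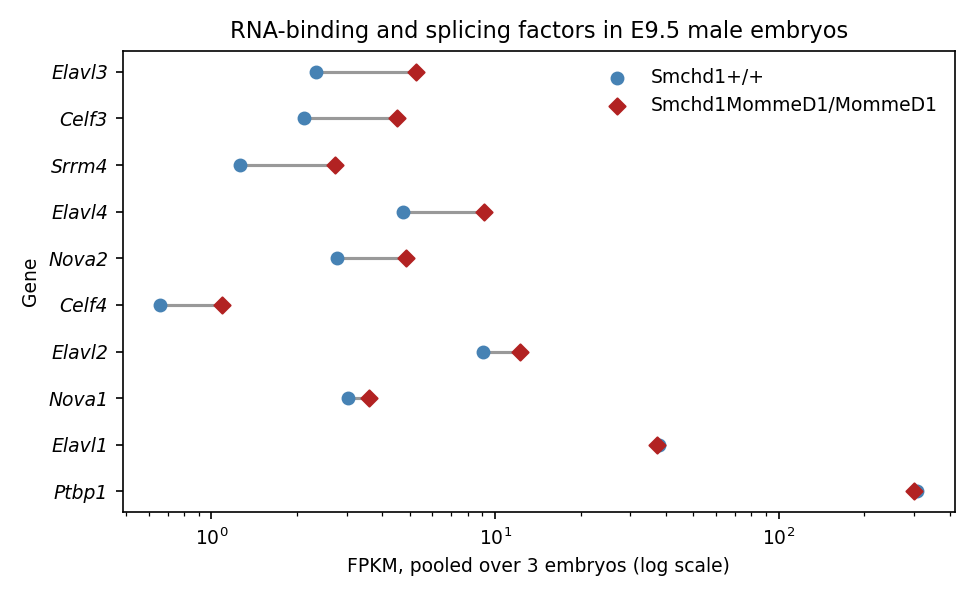
FPKM on a log scale for the 10 genes, ordered by ratio, with circles for Smchd1+/+ and diamonds for Smchd1MommeD1/MommeD1 (1 value per genotype, pooled over 3 embryos, no error available). The diamonds of the 8 neuronal members lie to the right of the circles, and those of *Elavl1* and *Ptbp1* overlap them.

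The ELAVL proteins bind AU-rich and U-rich stretches of messenger RNA. *Elavl1* (HuR), the form found in most cells, lies at chr8:4284782-4325100 (mm10, minus strand, as are all 4 ELAVL genes) and measured 37.2 FPKM in mutants against 37.8 FPKM in wildtypes. Its log2 ratio of -0.02 became 0.02 when both genotypes were rescaled to the same total FPKM, so its direction depends on the scaling. Of the 3 neuronal paralogs, *Elavl2* (HuB, chr4:91250767-91399984), which is known from early neurons and germ cells, was the most abundant. It measured 12.2 FPKM in mutants against 9.07 FPKM in wildtypes, a log2 ratio of 0.42 that stayed below 1.5-fold.

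*Elavl3* (HuC, chr9:22015005-22052023), a widely used marker of neurons that have just left the cell cycle, had the highest ratio of the 10 genes. It measured 5.26 FPKM in mutants against 2.33 FPKM in wildtypes, a log2 ratio of 1.14 (2.20-fold). Of all rows averaging 1 FPKM or more, 0.674% had a ratio at least as high, and of those with a mean from 1 to 5 FPKM 1.66%. *Elavl4* (HuD, chr4:110203723-110351911), which stabilizes growth-associated transcripts such as *Gap43*, was at 9.11 FPKM and 4.74 FPKM, a log2 ratio of 0.93 (1.90-fold). *Elavl2* and *Elavl4* both lie on chromosome 4, apart from each other, and differed in ratio by more than *Elavl3* and *Elavl4* did.

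With *Elavl1* near the same level in both genotypes, the makeup of the family differed. *Elavl1* made up 58.4% of the summed ELAVL FPKM in mutant and 70.1% in wildtype embryos. *Elavl3* made up 8.24% against 4.32%, *Elavl4* 14.3% against 8.77%, and *Elavl2* 19.1% against 16.8%. Relative to *Elavl1*, the level of *Elavl3* was 0.141 in mutants against 0.0617 in wildtypes. The order of the 4 genes by level, *Elavl1*, *Elavl2*, *Elavl4* and *Elavl3*, was the same in both genotypes.

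**Figure D2:**
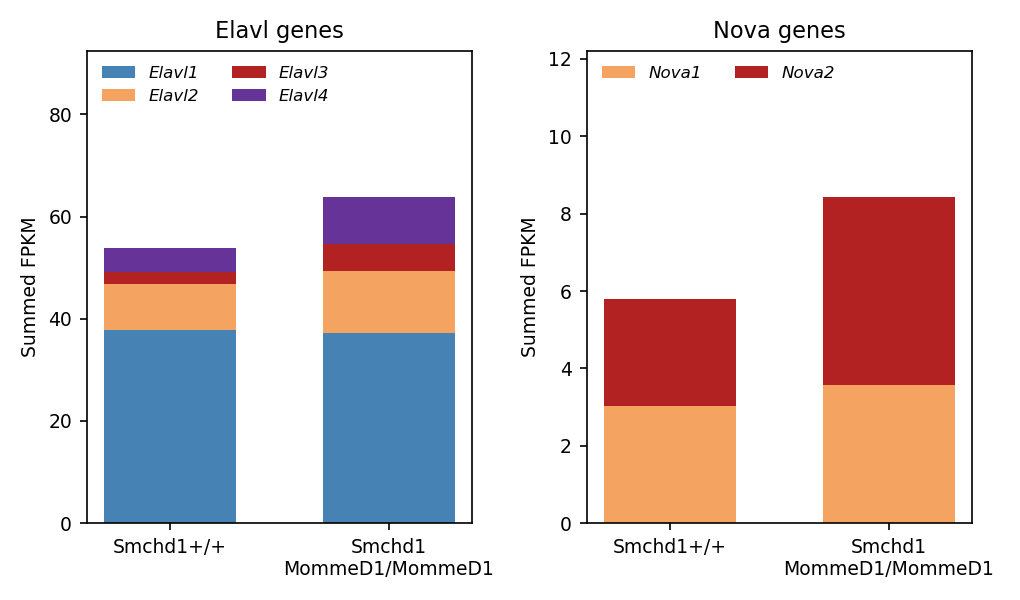
Stacked bars of FPKM (axes from 0) for the 4 ELAVL genes and both NOVA genes in each genotype, 1 pooled value each. The *Elavl1* segment is alike at 37.8 and 37.2 FPKM, the segments above it are taller in mutant embryos, and *Nova2* exceeds *Nova1* in mutant embryos only.

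NOVA proteins bind clusters of YCAY in RNA and set the splicing of synaptic transcripts. *Nova2*, at chr7:18925888-18965432 on the plus strand, measured 4.84 FPKM in mutants against 2.76 FPKM in wildtypes, a log2 ratio of 0.79 (1.73-fold). *Nova1*, at chr12:46694517-46818786 on the minus strand and known from hindbrain and spinal cord, was at 3.58 FPKM and 3.04 FPKM, a log2 ratio of 0.23, the lowest of the neuronal members. Among rows with a mean from 1 to 5 FPKM, 25.5% had a ratio at least as high as that of *Nova1* and 4.71% one at least as high as that of *Nova2*. The order of the pair by level differed between the genotypes, with 0.739 FPKM of *Nova1* for each FPKM of *Nova2* in mutant and 1.10 in wildtype embryos. This order rests on 2 pooled values for each gene.

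CELF proteins bind GU-rich RNA and act on splicing, translation and decay. *Celf3* (chr3:94478335-94492193, plus strand), a form largely limited to the nervous system, measured 4.52 FPKM in mutants against 2.12 FPKM in wildtypes, a log2 ratio of 1.05 (2.08-fold). *Celf4* (chr18:25477620-25753983, minus strand), which is known for a part in excitatory neurons and seizures, had the lowest level of the 10 genes, 1.09 FPKM and 0.661 FPKM. Its log2 ratio was 0.65 (1.57-fold), and it was the 1 member with a mean below 1 FPKM. At a mean from 0.5 to 1 FPKM, 16.8% of rows were at least 1.5-fold higher in mutant embryos and 14.6% had a ratio at least as high as that of *Celf4*. The ratio of *Celf4* alone thus lies within the range common at its level. *Celf1*, the abundant broad relative, was at 83.9 and 88.3 FPKM and *Celf2* at 7.35 and 6.78 FPKM, so *Celf3* made up 4.64% of the summed CELF FPKM in mutant and 2.17% in wildtype embryos.

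*Srrm4*, which drives the inclusion of short neuronal exons, lies at chr5:116438722-116591817 on the minus strand and measured 2.72 FPKM in mutants against 1.26 FPKM in wildtypes. Its log2 ratio was 1.05 (2.07-fold), and 2.17% of rows with a mean from 1 to 5 FPKM had one at least as high. The table gives the same locus to another row, *2410137F16Rik*, which was at 0.0352 and 0.0369 FPKM. *Rest*, a transcript on which SRRM4 is known to act, measured 8.14 FPKM in mutants against 8.94 FPKM in wildtypes, a log2 ratio of -0.13. The level of *Srrm4* was thus 0.334 of that of *Rest* in mutant and 0.141 in wildtype embryos.

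*Ptbp1*, the repressor of neuronal exons outside neurons, was the most abundant member. It measured 299 FPKM in mutants against 307 FPKM in wildtypes, a log2 ratio of -0.04 that became 0.004 after rescaling to the same total. *Ptbp2*, its neuronal relative, was at 62.2 and 65.2 FPKM and *Ptbp3*, listed under its older symbol *Rod1*, at 27.9 and 30.8 FPKM. The level of *Ptbp1* was 4.80 times that of *Ptbp2* in mutant and 4.71 times in wildtype embryos. The proportion of *Ptbp1* to *Ptbp2* was thus close in the genotypes. The table assigns *Ptbp1* to a locus of 672333 bp (chr10:79697305-80369637) that 46 other rows share, whereas each of the other members except *Srrm4* is alone in its locus.

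**Figure D3:**
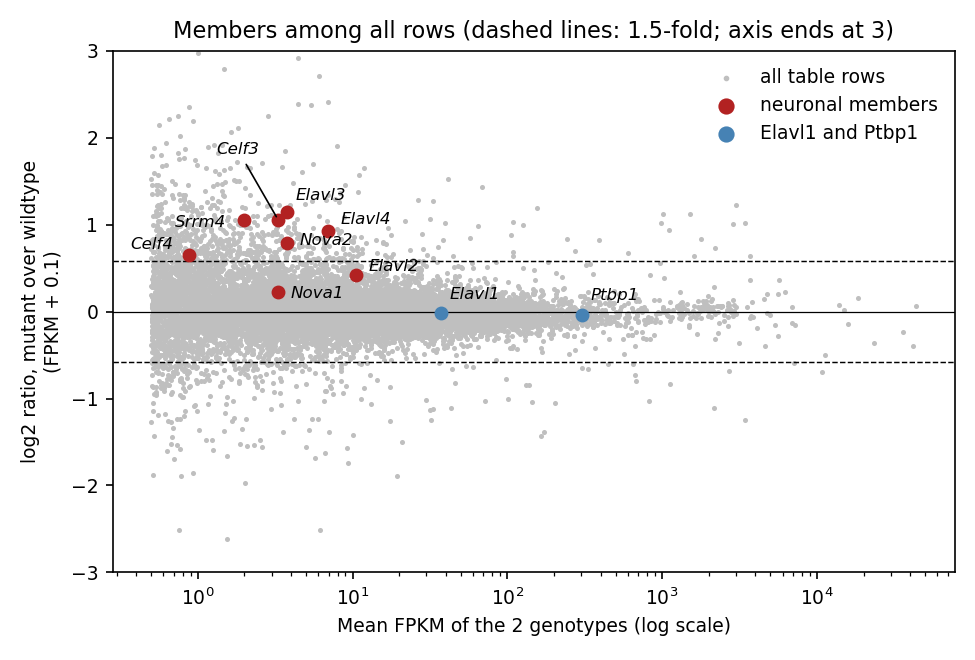
Log2 ratio of mutant over wildtype (FPKM + 0.1) against the mean FPKM of both genotypes on a log scale, for 13948 rows averaging 0.5 FPKM or more, of which 14 lie beyond the axis limit of 3. Grey points are table rows, red points the neuronal members and blue points *Elavl1* and *Ptbp1*. The spread of the grey points is wider at low levels, and 6 red points lie above the dashed line at 1.5-fold.

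The spread of ratios among rows depended on the level. From 1 to 5 FPKM, where 5 of the neuronal members lie, 8.57% of rows were at least 1.5-fold higher. The 5th to 95th percentile of rows at that level ran from -0.46 to 0.76 on the log2 scale, and *Elavl3*, *Celf3*, *Srrm4* and *Nova2* lay above that range. From 5 to 20 FPKM, where 1.95% were, it ran from -0.29 to 0.37, and both members there, *Elavl4* and *Elavl2*, lay above it. For *Elavl4*, 0.510% of rows of that level had a ratio at least as high, and for *Elavl2* 3.89%. From 20 to 100 FPKM the range was -0.25 to 0.23, with *Elavl1* near its middle. These ranges describe genes, not embryos.

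Other RNA-binding genes of neurons were described from a list of 9. Of the 9, 6 were below 1 FPKM on average, namely *Rbfox1*, *Rbfox3*, *Celf5*, *Celf6*, *Khdrbs2* and *Srrm3*, with log2 ratios from 0.64 to 1.0. *Srrm3*, a close relative of *Srrm4* with the same kind of activity, measured 0.634 FPKM in mutants against 0.267 FPKM in wildtypes (1.0). *Rbfox3*, whose protein is the neuronal antigen NeuN, was at 0.912 and 0.431 FPKM (0.93). *Celf6* was at 0.162 and 0.0462 FPKM, *Celf5* at 0.398 and 0.184 FPKM, *Khdrbs2* at 0.440 and 0.242 FPKM, and *Rbfox1* at 0.406 and 0.225 FPKM. At such levels the added 0.1 FPKM shrinks the ratios markedly, most of all for *Celf6*, so their range depends on it. *Rbfox3* averaged between 0.5 and 1 FPKM, where 16.8% of rows were at least 1.5-fold higher, and the other 5 averaged less than that.

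The 3 more abundant genes of that list had small ratios. *Khdrbs3*, at 40.7 and 36.8 FPKM, had a log2 ratio of 0.14, *Celf2* one of 0.12 and *Ptbp2* one of -0.07. The median over the list was thus 0.12 with a filter of 1 FPKM and 0.66 without it.

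RNA-binding genes of most tissues, such as those for the hnRNP and SR proteins, were near the same level in both genotypes. None of 32 such genes was past 1.5-fold in either direction. Of all rows averaging 1 FPKM or more, 3.51% were at least 1.5-fold higher and 1.47% at least 1.5-fold lower. All of the 32 but *Mbnl1*, *Mbnl2* and *Mbnl3* averaged 20 FPKM or more. From 20 to 100 FPKM 0.580% of rows were at least 1.5-fold higher, and from 100 FPKM 2.47%. None past 1.5-fold thus says little about these 32 genes. Their log2 ratios ran from -0.21 for *Mbnl2* to 0.16 for *Mbnl1*, with a median of -0.06. Of the 32, 24 were lower and 8 higher in mutant embryos, but 18 and 14 after rescaling to the same total FPKM. *Rbfox2*, the broad member of its family, was at 27.5 and 27.0 FPKM, and *Srrm2*, a general spliceosome component, at 78.4 and 80.7 FPKM. *Elavl1* and *Ptbp1* lay inside the range of this list, and every neuronal member lay above its highest value.

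Among 9 genes of the REST repressor and its cofactors, none was past 1.5-fold. Of all rows averaging 1 FPKM or more, 3.51% were at least 1.5-fold higher and 1.47% lower, so none among 9 genes says little. *Rcor3*, at 3.54 and 2.90 FPKM, had the highest log2 ratio (0.28). The values were 0.14 for *Ehmt2* and 0.13 for *Rcor2*, a corepressor abundant in neural progenitors. *Rcor1* had 0.03, *Kdm1a* -0.02, *Hdac2* -0.05 and *Hdac1* -0.06, and *Sin3a* had -0.13. The row that names the miR-124 host transcript *A930011O12Rik* together with *Mir124a-1* and *Mir3078* measured 0.337 FPKM in mutants against 0.145 FPKM in wildtypes. It cannot be assigned to the miRNA, which is known to act on *Ptbp1*. *Mir124a-2* and *Mir124a-3* are listed at 0 in both genotypes, and *Mir124-2hg*, listed as *2610100L16Rik*, was at 2.16 and 2.62 FPKM.

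**Figure D4:**
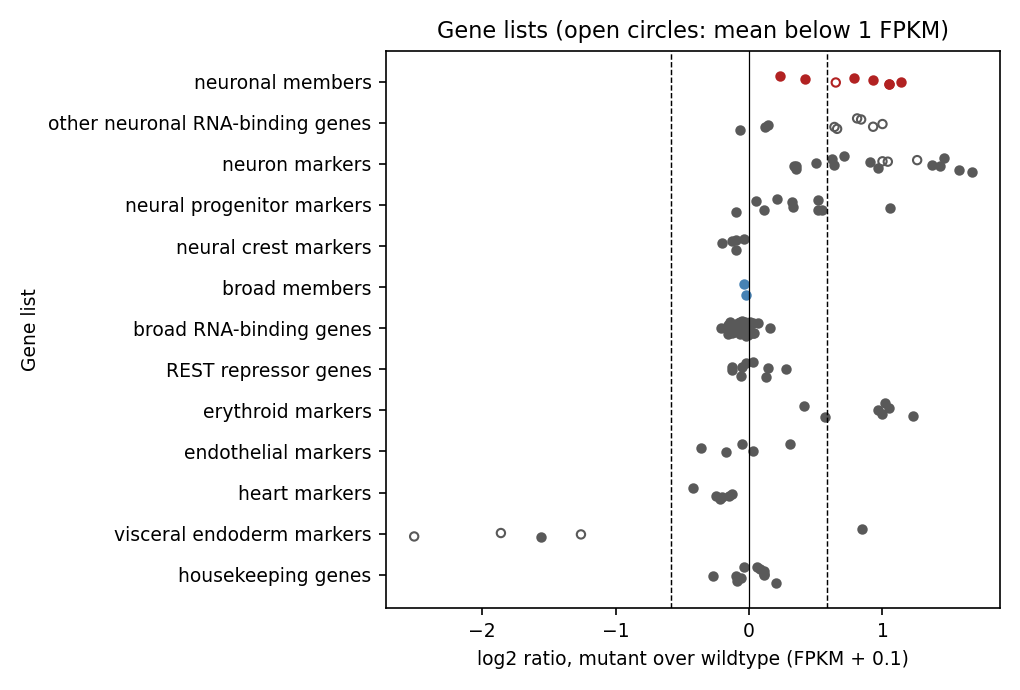
Log2 ratio of mutant over wildtype (FPKM + 0.1), 1 point per gene, by gene list, for genes averaging 0.1 FPKM or more, with open circles for a mean below 1 FPKM and dashed lines at 1.5-fold. Neuronal members, neuron markers and erythroid markers lie to the right of 0, broad RNA-binding genes around 0, and 4 of 5 visceral endoderm markers to the left.

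Markers of neurons moved with the neuronal members, and their part in the result was not tested. All 17 neuron markers were higher in mutant embryos, and their summed level was 392 FPKM in mutants against 222 FPKM in wildtypes. Of all rows averaging 1 FPKM or more, 48.2% were higher and 3.51% at least 1.5-fold higher. From 1 to 5 FPKM 8.57% were at least 1.5-fold higher. Over the 14 averaging 1 FPKM or more the median log2 ratio was 0.81, with 10 past 1.5-fold, from 0.34 for *Gap43* to 1.67 for *Dcx*. None of these markers was at 0. The tubulin gene *Tubb3* was at 99.9 and 37.0 FPKM (1.43), the neurofilament genes *Nefl* and *Nefm* had ratios of 1.37 and 1.57, and that of *Ina* was 1.46. *Dcx*, *Nefm*, *Ina*, *Tubb3* and *Nefl* had higher ratios than any neuronal member, as did *Snap25* (1.26), at 1.28 and 0.476 FPKM. *Gap43*, a known target of HuD, was at 39.9 and 31.4 FPKM. Of the 8 neuronal members, 4 had ratios above the marker median, namely *Elavl3*, *Celf3*, *Srrm4* and *Elavl4*, and *Nova1* alone was below the lowest marker, *Gap43*.

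Neural progenitor markers differed less. Of 10 such genes, 9 were higher in mutant embryos, with a median log2 ratio of 0.33 and *Fabp7* as the 1 gene past 1.5-fold, at 43.1 and 20.6 FPKM (1.06). Of all rows averaging 1 FPKM or more, 48.2% were higher and 3.51% at least 1.5-fold higher, so 1 gene of 10 past 1.5-fold says little. After rescaling to the same total FPKM the share of rows higher was 58.6%. The pan-neural factors *Sox1* and *Sox2* had 0.05 and 0.11, and *Pax6* had -0.10. *Msi1*, an RNA-binding protein of neural progenitors, was at 82.6 and 65.6 FPKM (0.33). Of the neuronal members, *Elavl3* alone lay above the whole progenitor list. With *Fabp7* set aside, 6 neuronal members lay above every progenitor marker, while *Elavl2* (0.42) and *Nova1* (0.23) lay within the range of those markers. The summed level of the progenitor markers was 735 against 530 FPKM. The 5 neural crest markers had ratios from -0.20 for *Ets1* to -0.04 for *Sox10*, with a summed level of 40.4 against 44.4 FPKM.

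Markers of other cell types also differed between the genotypes, and their part in the result was not tested. All 7 erythroid markers were higher in mutant embryos, against 48.2% of all rows averaging 1 FPKM or more. Their median log2 ratio was 1.0, from 0.41 for *Epor* to 1.23 for the embryonic globin gene *Hbb-y*. Their summed level was 12700 against 6000 FPKM. The embryonic globin genes *Hba-x* and *Hbb-bh1* had 1.02 and 1.0, and *Alas2*, for heme synthesis, had 1.05. Of the 5 visceral endoderm markers, *Cubn* (-2.51), *Apob* (-1.86), *Ttr* (-1.56) and *Amn* (-1.26) were lower in mutant embryos, whereas *Afp* was at 14.7 and 8.10 FPKM (0.85). Of these, *Cubn* (0.157 and 1.37 FPKM), *Apob* (0.346 and 1.52 FPKM) and *Amn* (0.127 and 0.444 FPKM) averaged below 1 FPKM. Only *Ttr* (2.48 and 7.51 FPKM) and *Afp* averaged more, and they differed in opposite directions. The 6 heart markers ran from -0.42 for *Myl7* to -0.13 for *Myh7* (summed level 847 against 1040 FPKM) and the 5 endothelial markers from -0.36 for *Tek* to 0.31 for *Pecam1* (64.3 against 66.7 FPKM). None of the 11 housekeeping genes was past 1.5-fold, which says little beside 3.51% of all rows higher and 1.47% lower. Their median log2 ratio was 0.06.

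The neuronal members differ in gene structure, and their ratios are given beside it as a description. *Celf4*, *Srrm4*, *Elavl2*, *Elavl4* and *Nova1* span over 100000 bp in GENCODE M21, as do 14.1% of matched rows, and their log2 ratios ran from 0.23 to 1.05. *Elavl3*, *Nova2* and *Celf3* span 37019, 39432 and 13904 bp, with ratios from 0.79 to 1.14. GC content of the longest coding transcript was 54.1% for *Elavl3*, 57.7% for *Celf3*, 52.2% for *Srrm4* and 56.3% for *Nova2*, and 38.5% for both *Elavl2* and *Nova1*, the 2 neuronal members below 1.5-fold. *Elavl4*, with 38.9%, and *Celf4*, with 49.3%, were past it. Among matched rows, split into 3 classes of like size by transcript length, 4.32% of the shortest and 2.46% of the longest were at least 1.5-fold higher.

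RefSeq start regions of 9 members were used, and *Celf4* was left out of this search. The 250 bases before the start site were searched for the same short motifs. *Elavl3*, shown above, holds the CCAAT box 66 bases before its start, the E-box CAGCTG at 43 bases, the TATA box at 33 bases and the GC box at 20 bases. CAGCTG was also found 193 bases before the start of *Nova1* and 190 bases before that of *Celf3*, and 12.3% of 15268 such regions hold it. CAGATG was found 158 bases before the start of *Srrm4* and 55 bases before that of *Ptbp1*, against 12.5% of all regions. TATAAA was found in *Elavl3* alone among the 9, in 11.9% of all regions and in 5.77% of the 8365 regions of genes averaging 1 FPKM or more, as all 9 do. *Elavl1* holds CCAAT at 65 and 34 bases and none of the other motifs. CCAAT was also found 62 bases before the start of *Ptbp1* and 228 bases before that of *Celf3*, and 36.1% of regions hold it. *Nova2* holds GGGCGG at 51 and 13 bases, a motif held anywhere by 44.5% of all regions and 63.1% of those of genes averaging 1 FPKM or more. For the other 3 motifs the shares among such genes were 11.3% for CAGCTG, 9.13% for CAGATG and 37.1% for CCAAT. *Elavl2* and *Elavl4* hold none of the 5 motifs. GC content of these regions ran from 50.0% for *Nova1* to 71.2% for *Nova2*, with a median of 56.0% over all regions. None of the motifs was found in every neuronal member, and a match of letters does not show binding.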

How the data were processed

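RNA-seq data of 3 Smchd1+/+ and 3 Smchd1MommeD1/MommeD1 male embryos were used, grouped by the genotype in their labels. Reads were aligned by the authors with TopHat2 2.0.6 and Bowtie2 2.0.2 to MM10, and compared with Cuffdiff 2.0.2, per the submitters' processing notes. The study describes the E9.5 libraries as nondirectional, so antisense reads cannot be told apart. The deposited values are FPKM as the authors computed them, pooled over the 3 embryos of a genotype. The columns of the authors' own comparison (log2 fold change, test statistic, p-value and q-value) were not used. Value columns were assigned to genotypes by the table's abbreviated sample names, which the study's supplement spells out in full. Depth is not given in the sources used here, and no interval from counting was computed.

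Log2 ratios were computed after adding 0.1 FPKM, with a mean of at least 1 FPKM for gene lists and for the share of all rows past 1.5-fold. No test was made. The members and lists were chosen with earlier results of these data known. Named were all members, *Smchd1*, the lists of neuronal RNA-binding, REST and miR-124 genes, and from other lists the extremes and genes past 2-fold, except that the extremes of the housekeeping list are not reported here. Other genes named from those lists were chosen after their values were seen. Older symbols were matched through RefSeq. Table starts were counted from 0, since for 8967 of 20173 rows the RefSeq start equalled the table start plus 1. It equalled the table start itself for 571, and the remaining rows matched neither. Start regions nearest to the locus edge were taken from RefSeq (GRCm38.p6). For *Ptbp1* the start used lies 157127 bp from the edge of its shared locus, so the edge is little guide to that start. Gene structure was taken from GENCODE M21, in which 84.1% of rows averaging 1 FPKM or more matched a coding transcript. The steps were tested on simulated data with 2-fold changes placed in rows averaging 5 FPKM or more. Of the neuronal members, only *Elavl2* and *Elavl4* reach that level, so the simulation did not cover the others. Python 3.11.15, numpy 2.4.6, pandas 2.3.3 and matplotlib 3.10.9 were used.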

Additional observations from a re-analysis of the deposited data

How the results depend on the processing

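Each value rests on 1 pooled measurement per genotype. No paired analysis was possible because the table gives no value per embryo, and leaving out each embryo was not run for the same reason. Of 142 alternatives over 23 results, 126 moved a log2 value by less than 0.1 or a count by less than 1.5 times, and 16 moved it further. The rescalings added only 0.043, -0.016 or 0.0076 to log2 ratios, so under them no log2 value could move by 0.1. The count of 126 includes these rescalings and is therefore no measure of robustness. A larger pseudocount shrinks the ratios of low genes by construction. With 1 FPKM added, the log2 ratios were 0.91 for *Elavl3*, 0.82 for *Elavl4*, 0.64 for *Nova2*, 0.82 for *Celf3*, 0.33 for *Celf4* and 0.72 for *Srrm4*, the neuronal median exceeded that of *Elavl1* and *Ptbp1* by 0.71, and the medians were 0.71 for neuron markers and -0.25 for visceral endoderm markers. With a mean of at least 5 FPKM, 1 member (*Elavl4*) was past 1.5-fold, the neuronal excess was 0.71 over 2 genes, and *Afp* alone was left of the visceral endoderm markers (0.85, against a median of -0.36 for the 2 markers from 1 FPKM). A fold of 2 left 3 members. Without a filter, medians were 0.66 for other neuronal RNA-binding genes, 0.97 for neuron markers and -1.56 for visceral endoderm markers. With a mean of at least 1 FPKM, an alternative chosen after seeing the data, 5 members were past 1.5-fold and the neuronal excess was 0.96. Rescaling to the same total FPKM shifted log2 ratios by 0.043, turned the signs of *Elavl1* (0.020) and *Ptbp1* (0.004) and of the REST list median (from -0.02 to 0.02), and changed the share of rows that were higher from 48.2% to 58.6%.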

Other observations

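The locus to which the table assigns *Ptbp1* holds 46 other rows, 33 of them averaging 1 FPKM or more. The log2 ratios of these 33 ran from -0.37 to 1.34, with a median of 0.05. Of these, 2 were at least 1.5-fold higher in Smchd1MommeD1/MommeD1 embryos and none was at least 1.5-fold lower. Of all rows averaging 1 FPKM or more, 3.51% were at least 1.5-fold higher and 1.47% at least 1.5-fold lower. The counts at this locus thus say little.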
